A study of Rattus norvegicus with 31 samples.

Results

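The genes described here are Pfkfb3, which encodes an enzyme that makes an activator of glycolysis, and 7 genes of the glycolytic pathway itself, Hk2, Pfkm, Aldoa, Tpi1, Pgam2, Eno3 and Pkm. They were chosen by name, with earlier results of these data known. Of these 8 genes, 7 had a row among the 11289 genes of the count table, and all 7 passed the filter on low counts that left 10082 genes for testing. Tpi1, triose phosphate isomerase, is not analysed here.

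The levels were measured in gastrocnemius, a calf muscle, of 31 female Sprague Dawley rats aged 7 months and fed chow. There were 8 Ucp1 knockout rats at 4 °C for 14 days, 8 control rats at 4 °C for 14 days, 7 Ucp1 knockout rats at room temperature and 8 control rats at room temperature. The period was 14 days for the room temperature groups too. Ucp1 lets brown fat mitochondria make heat, and the design asks how muscle responded to cold with and without it. Genotype rests on the labels alone, since Ucp1 itself is not analysed here, and the labels name neither the knockout allele nor the cells in which it acts. Each rat gave 1 library of tags from the 3' ends of transcripts, with a total of 6.56 to 11.9 M counts, so levels do not scale with transcript length.

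Glycolysis splits glucose into pyruvate and is the fast source of ATP in a contracting fast muscle fibre. Hexokinase 2 (Hk2) traps glucose in the cell, phosphofructokinase (Pfkm) commits it to the pathway, aldolase A (Aldoa) splits the sugar, and phosphoglycerate mutase 2 (Pgam2), beta-enolase (Eno3) and pyruvate kinase (Pkm) act in its last steps. Pfkfb3 stands outside the chain: it makes and breaks down fructose 2,6-bisphosphate, which switches phosphofructokinase on. Pfkm, Pgam2 and Eno3 are the muscle forms of their enzymes.

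The promoters of 3 of the genes are shown because Pgam2 and Eno3 varied together between animals, while r of Pfkfb3 with each was negative. As described below, the negative r did not pass the test with either gene. Aldoa and Pgam2 varied together more closely, with r of 0.862, and the Aldoa windows are not printed. Each sequence is the 250 bases before the RefSeq start of the gene in rat build GRCr8, written 5' to 3' on the gene's strand, and capitals mark the E-box CANNTG, the motif bound by basic helix-loop-helix factors such as MyoD and Myc. Pfkfb3 lies at chr17:71944683-71944932 on the plus strand, Pgam2 at chr14:84897875-84898124 on the minus strand and Eno3 at chr10:55868936-55869185 on the plus strand.
Pfkfb3: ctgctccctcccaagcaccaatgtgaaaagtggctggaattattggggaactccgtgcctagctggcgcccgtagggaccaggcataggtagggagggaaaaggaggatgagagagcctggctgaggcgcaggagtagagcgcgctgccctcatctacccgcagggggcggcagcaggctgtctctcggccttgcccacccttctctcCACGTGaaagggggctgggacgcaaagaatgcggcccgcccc
Pgam2: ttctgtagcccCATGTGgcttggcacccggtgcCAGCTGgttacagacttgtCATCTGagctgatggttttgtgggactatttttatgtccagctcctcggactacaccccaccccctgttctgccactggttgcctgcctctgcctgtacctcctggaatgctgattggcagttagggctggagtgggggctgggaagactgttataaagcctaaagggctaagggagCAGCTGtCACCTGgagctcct
Eno3: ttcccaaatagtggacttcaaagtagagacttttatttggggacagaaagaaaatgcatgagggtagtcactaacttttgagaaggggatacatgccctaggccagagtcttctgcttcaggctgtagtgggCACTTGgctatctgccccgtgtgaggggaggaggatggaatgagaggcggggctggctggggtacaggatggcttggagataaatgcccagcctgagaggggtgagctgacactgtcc

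The Pfkfb3 window held 1 E-box, the palindrome CACGTG, which began 42 bases before the start. The Pgam2 window held 5 E-boxes and also the letters TATAAA, and the Eno3 window held 1, CACTTG. Both strands were searched. Over all 33469 rat promoter windows of 250 bases, 65.5% held at least 1 CANNTG, 5.59% held CACGTG and 12.9% held TATAAA, and CACGTG lies within CANNTG. All 8 genes had an entry, with 3 starts for Aldoa, and CACGTG occurred in no window of the other genes. The 3 Aldoa windows held 0, 0 and 1 E-boxes, the last being CAATTG. The windows of Hk2, Pfkm and Pkm held 0 each and that of Tpi1 held 1. Whether E-boxes go with varying together was not tested. These matches are letters in a window, not measured binding.

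Of the 6 enzymes of the chain, 4 were among the most abundant transcripts of the muscle. By mean level over the 31 libraries, in CPM (counts scaled to the same library total) after TMM scaling, Pgam2 ranked 22, Eno3 23, Aldoa 28 and Pfkm 50 of 10082 genes. Pfkfb3 ranked 1228 with a mean level of 93.0 CPM and Hk2 ranked 1349 with 85.0 CPM. Pkm ranked 6269, with a mean of 7.14 CPM resting on 11 to 188 counts a library, so its level is the least precise of the 7. A 3' tag count also depends on where the end of the gene is annotated, which was not tested here, so the level and rank of Pkm are those of the counted tags. The tags do not tell its M1 and M2 splice forms apart. The levels of the 6 enzymes without Pfkfb3 summed to 15684 ± 5327 CPM in knockout rats and 17814 ± 3597 CPM in control rats in the cold (SD, n = 8 each), and to 17304 ± 3216 CPM in 7 knockout rats and 19463 ± 4677 CPM in 8 control rats at room temperature.

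The libraries were not uniform, and this touched several results. On the second principal component room temperature controls 1 and 2 scored -62.0 and -79.5, while every other library scored -9.70 or higher. On the first component, which held 35.3% of the variance, 7 libraries spread over the 4 groups scored under -30, control 1 among them. Component scores were computed without the glycolysis lists, and results that rest on these libraries are given with and without them. Muscle markers were abundant: all 10 slow fibre genes and 9 of 12 fast fibre genes were tested, and the fast fibre genes alone summed to between 82987 and 189982 CPM in each library.

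Pfkfb3 had a lower median in knockout than in control muscle at both temperatures, but the difference did not pass the test across all genes. At room temperature the 7 knockout rats had 33.7 to 115 CPM with a median of 65.7 CPM, against 74.8 to 265 CPM with a median of 115 CPM in the 8 control rats. In the cold the 8 knockout rats had 32.5 to 112 CPM with a median of 60.1 CPM, against 58.5 to 159 CPM with a median of 84.3 CPM in the 8 control rats. The groups overlapped at both temperatures. Of the knockout rats at room temperature, 5 lay below the lowest control there, and the highest levels of the study were those of control animals 1 and 2, at 224 and 265 CPM.

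**Figure D1:**
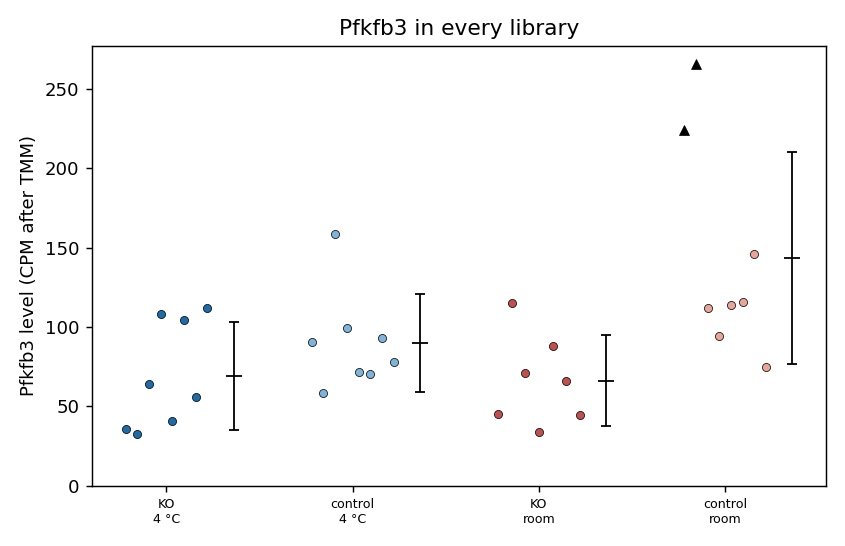
Level of Pfkfb3 in CPM after TMM in each of the 31 libraries, by genotype and temperature, with the group mean and SD beside the points; black triangles are control animals 1 and 2 at room temperature. Those 2 libraries are the highest of the study, and without them the room temperature controls run from 74.8 to 146 CPM.

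The knockout effect on Pfkfb3 at room temperature was a log2 fold change of -1.11 ± 0.31 (SE), or 0.462-fold with a 95% interval of 0.300 to 0.712. Its p of 0.000967 was the 8th smallest of 10082, and the adjusted p was 0.698 (edgeR quasi-likelihood test, Benjamini-Hochberg). Pfkfb3 was chosen with earlier results of these data known, so this p and rank are not independent support. No gene of the table passed in this contrast: 0% of 10082 genes were called with edgeR, 712 (7.06%) had an unadjusted p under 0.05, and DESeq2 called 1. Without control animals 1 and 2 the Pfkfb3 difference was -0.72 with an unadjusted p of 0.0214 (edgeR) and an adjusted p of 0.939. In the cold the knockout effect was -0.38 ± 0.29 with an adjusted p of 0.949 (edgeR), and its interval ran from -0.97 to 0.21. The knockout effect averaged over both temperatures, a contrast added after the data were seen, was -0.75 ± 0.21 with an adjusted p of 0.424 (edgeR), and -0.55 without animals 1 and 2. In that contrast 0% of genes were called with edgeR, 645 (6.4%) had an unadjusted p under 0.05 and DESeq2 called 9.

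With cold, the mean of Pfkfb3 differed little in knockout rats and was lower in controls, and neither difference passed the test. Knockout rats averaged 69.1 ± 33.9 CPM in the cold and 66.3 ± 28.5 CPM at room temperature (SD, n = 8 and 7), a log2 change of 0.06 ± 0.30 with an interval of -0.55 to 0.67. Control rats averaged 90.0 ± 30.8 CPM in the cold and 143 ± 66.7 CPM at room temperature (SD, n = 8 each), a log2 change of -0.67 ± 0.29 with an adjusted p of 0.286 (edgeR). That value rested on animals 1 and 2: without them it was -0.28. The difference between both cold effects was 0.73 ± 0.42 with an adjusted p of 0.751 (edgeR), and 0.34 without animals 1 and 2.

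The libraries of animals 1 and 2 also differed in markers of other cells. The 8 tested of 10 adipocyte genes summed to 188 and 167 CPM in them, against 387 to 700 CPM in the 6 remaining controls at that temperature. The 11 tested of 12 immune genes summed to 77.9 and 55.3 CPM, against 181 to 279 CPM in the others. The 7 tested of 8 endothelial genes summed to 274 and 242 CPM, against 130 to 166 CPM. Both libraries also had the lowest sums of their group in the 5 tested of 6 fibroblast genes (305 and 222 CPM, against 643 to 941 CPM) and in the 5 Schwann cell genes (107 and 94.2 CPM, against 218 to 365 CPM). Their slow fibre genes summed to 6583 and 7125 CPM, against 8849 to 17178 CPM. Pparg, Plin4, Itgam, Pecam1 and Col1a2 were the markers of these lists not tested. Sums of other lists did not set both libraries apart from their group. Smooth muscle genes summed to 93.2 and 93.3 CPM, with control 4 lower at 88.6 CPM. Erythrocyte rows summed to 336 and 453 CPM, against 377 to 659 CPM. Fast fibre genes summed to 158553 and 139298 CPM, with control 4 between them at 147380 CPM. The part of the marker differences in the level of Pfkfb3 was not tested, and in bulk muscle fewer cells of a type and less RNA per cell cannot be told apart.

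None of the other enzymes passed in any contrast. In the cold contrast of controls 0 of the 7 genes were called, where 0.853% of all genes were, and in that of knockout rats 0 of 7, where 1.38% were. In the knockout contrast in the cold 0 of 7 were called, where 0.00992% were and 6.28% had an unadjusted p under 0.05, and in the contrast of both cold effects (interaction) 0 of 7, where 0% of all genes were called with edgeR, 737 (7.31%) had an unadjusted p under 0.05 and DESeq2 called 1. In the cold effect averaged over genotypes 0 of 7 were called, where 5.65% were. The size of each difference is given below with its error.

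**Figure D2:**
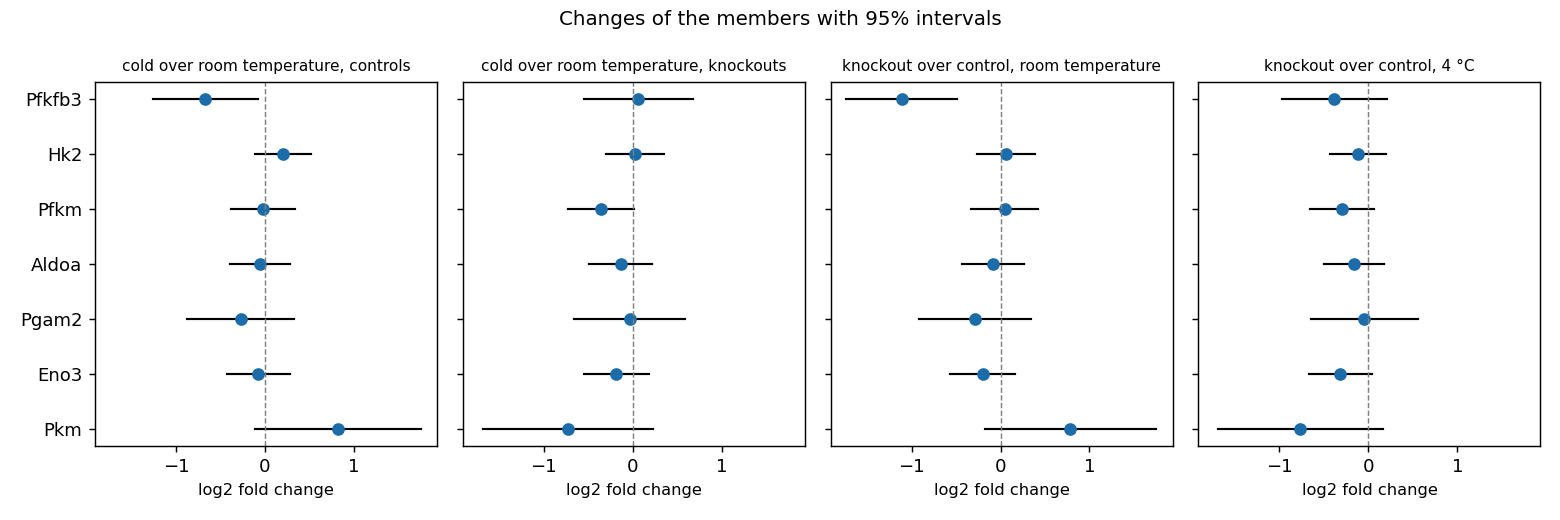
Log2 fold change of the 7 genes in 4 contrasts, as points with 95% intervals. The interval lies wholly below 0 for Pfkfb3 in the knockout contrast at room temperature and in the cold contrast of controls, and covers 0 for the other genes in all 4 panels.

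In the knockout contrast in the cold all 7 genes had values below 0, with a median log2 difference of -0.29, against a median of 0.04 over all genes, of which 42.7% were below 0. The genes share libraries and partly vary together, so they are not 7 separate observations. In the knockout contrast at room temperature their median was -0.08, against -0.03 over all genes. In the cold contrasts it was -0.14 in knockout rats, against 0.02 over all genes, and -0.05 in controls, against -0.03. Fast fibre genes were also mostly below 0 in the knockout contrasts. In the cold 9 of the 9 tested were, with a median of -0.12. At room temperature 8 of 9 were, with a median of -0.27, and 0 passed in either contrast.

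**Figure D3:**
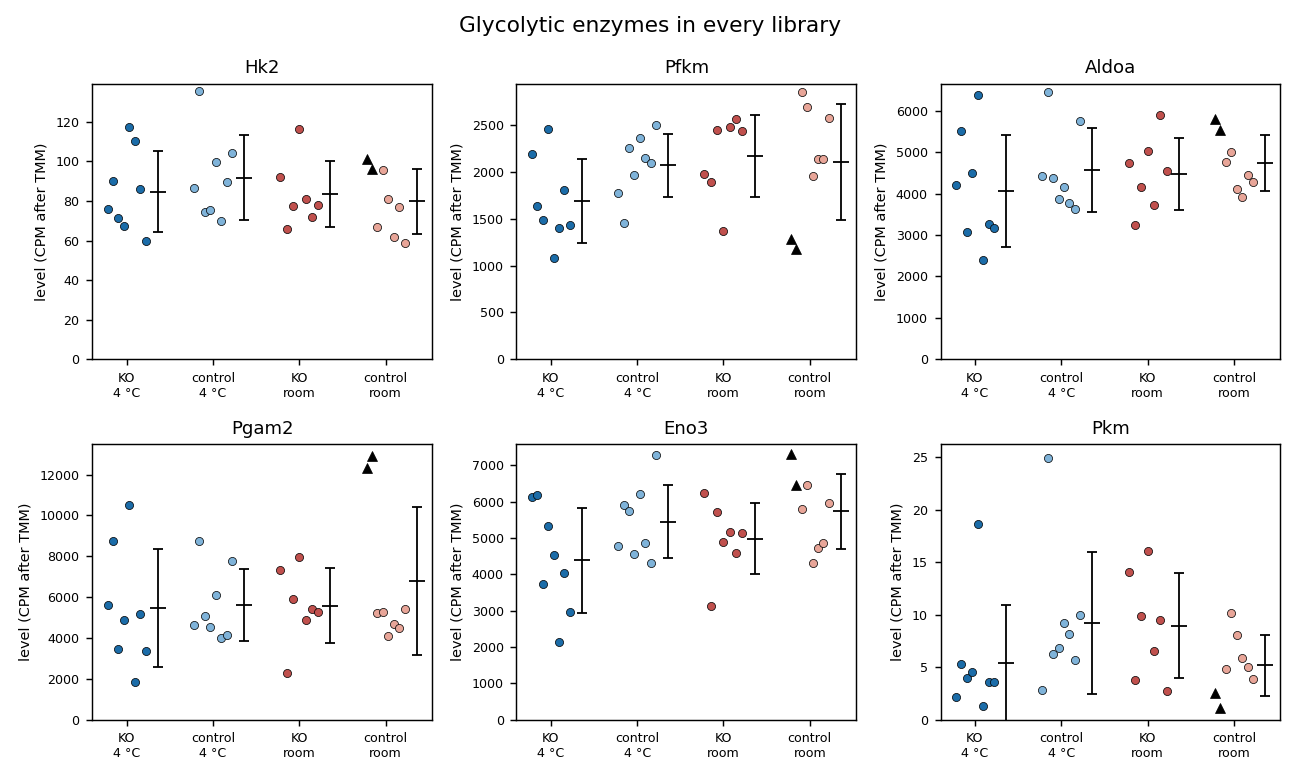
Level in CPM after TMM of Hk2, Pfkm, Aldoa, Pgam2, Eno3 and Pkm in each library by genotype and temperature, with mean and SD; black triangles are control animals 1 and 2 at room temperature. In Pgam2 those 2 libraries lie at 12340 and 12926 CPM, above all others, and in Pfkm they are the lowest of their group.

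Hk2, the enzyme that phosphorylates glucose as it enters, was the steadiest of the 7, with a 2.30-fold range over all 31 libraries. It averaged 84.7 ± 20.5 CPM in knockout rats in the cold, 91.9 ± 21.4 CPM in control rats in the cold, 83.3 ± 16.7 CPM in knockout rats at room temperature and 79.9 ± 16.6 CPM in control rats at room temperature (SD, n = 8, 8, 7 and 8). All 4 groups overlapped. Its change with cold was 0.20 ± 0.16 in controls and 0.02 ± 0.16 in knockout rats, and the interval in controls reached 0.52.

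Pfkm, the muscle phosphofructokinase on which the product of Pfkfb3 acts, was lowest in knockout rats in the cold, at 1084 to 2459 CPM with a median of 1562 CPM. Control rats in the cold had 1458 to 2506 CPM with a median of 2123 CPM. Knockout rats at room temperature had 1370 to 2569 CPM with a median of 2443 CPM, and control rats there had 1171 to 2856 CPM with a median of 2138 CPM. The groups overlapped throughout. Cold in knockout rats gave -0.36 ± 0.18 with an adjusted p of 0.366, and knockout in the cold gave -0.29 ± 0.18 with an adjusted p of 0.882 (edgeR).

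Aldoa and Eno3 had the same order of means. Aldoa, which splits fructose 1,6-bisphosphate, averaged 4067 ± 1356 CPM in knockout rats in the cold and 4562 ± 1014 CPM in control rats in the cold (SD, n = 8 each). At room temperature Aldoa averaged 4473 ± 871 CPM in 7 knockout rats and 4735 ± 679 CPM in 8 control rats (SD). Eno3, the muscle enolase, averaged 4382 ± 1454 CPM in knockout rats in the cold, 5452 ± 1004 CPM in control rats in the cold, 4985 ± 988 CPM in knockout rats at room temperature and 5733 ± 1028 CPM in control rats at room temperature (SD, n = 8, 8, 7 and 8). The spread within groups exceeded these steps: knockout in the cold gave -0.17 ± 0.17 for Aldoa and -0.32 ± 0.17 for Eno3, with adjusted p of 0.977 and 0.849 (edgeR). Knockout rats in the cold had the widest spread of the 4 groups in both genes, with a coefficient of variation of 33.3% for Aldoa and 33.2% for Eno3. In the averaged knockout contrast, added after the data were seen, Eno3 had -0.26 ± 0.13 with an adjusted p of 0.779 (edgeR). Its interval there, -0.51 to -0.0026, lay below 0, as did that of Pfkfb3.

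Pgam2, the muscle phosphoglycerate mutase, had 2 libraries far above the rest. Control rats at room temperature averaged 6806 ± 3626 CPM (SD, n = 8), but animals 1 and 2 had 12340 and 12926 CPM and the other 6 had 4120 to 5421 CPM. Knockout rats at room temperature had 2299 to 7966 CPM with a median of 5446 CPM. In the cold, knockout rats had 1837 to 10511 CPM with a median of 5046 CPM, against 3999 to 8771 CPM with a median of 4854 CPM in control rats. The knockout difference at room temperature was -0.29 ± 0.31, and 0.20 without animals 1 and 2. The cold difference in controls was -0.27 ± 0.30, and 0.21 without them, so neither sign held.

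Pkm, the enzyme of the last step, had the widest range of the 7, 21.8-fold over the libraries. Knockout rats in the cold had 1.30 to 18.7 CPM with a median of 3.78 CPM, against 2.79 to 24.99 CPM with a median of 7.52 CPM in control rats in the cold. Knockout rats at room temperature had 2.72 to 16.1 CPM with a median of 9.47 CPM, against 1.15 to 10.2 CPM with a median of 4.95 CPM in control rats there. Cold gave -0.73 ± 0.47 in knockout rats and 0.82 ± 0.46 in controls. The difference of these cold effects was -1.55 ± 0.66, with a p of 0.0242 and an adjusted p of 0.623 (edgeR). It was -2.16 without knockout animal 28, -1.15 without control animal 17 and -1.26 without room temperature controls 1 and 2, with adjusted p of 0.143, 0.806 and 0.836 (edgeR). In controls the cold value was 0.43 without animal 17, and in knockout rats it was -1.34 without animal 28, so leaving out 1 library moved it by more than 1.5 times.

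Between animals of the same group, 3 of the enzymes varied together most closely. With group means removed, the log2 levels of Aldoa and Pgam2 correlated with Pearson's r of 0.862 and Spearman's rho of 0.831 over 31 libraries. Pgam2 and Eno3 correlated with r of 0.803 and rho of 0.826, and Aldoa and Eno3 with r of 0.725 and rho of 0.738. Both measures passed for these 3 pairs in a permutation test within groups, two-sided, over 21 pairs of genes (100000 permutations; the unadjusted p was 1e-05 for the first 2 pairs, the smallest the permutations can give, and 1e-04 for r of the third). The adjusted p was 0.000105 for r and for rho of the first 2 pairs, and 7e-04 for r and 0.00042 for rho of the third. Without the 2 libraries farthest from the median in the first-named gene of the pair, r was 0.804, 0.788 and 0.709 in the same order. Libraries far out in the other gene stayed in, and group means were not taken anew. Without the 7 libraries low on the first component r was 0.758, 0.826 and 0.750 over 24 libraries. Hk2 also passed on both measures with Pgam2 (r 0.535 and rho 0.567, adjusted permutation p of 0.0148 and 0.0109) and with Aldoa (r 0.469 and rho 0.484, adjusted permutation p of 0.0394 and 0.0374). Those r were 0.427 and 0.283 without the 2 libraries farthest in Hk2, and 0.120 and -0.045 without the 7 low libraries. They were 0.449 and 0.419 without room temperature controls 1 and 2. Aldoa and Pkm passed on r alone (0.471, adjusted permutation p of 0.0393, and rho 0.393, 0.0948). Their r was 0.073 without the 7 low libraries and 0.667 without room temperature controls 1 and 2. Pgam2 and Pkm did not pass, with r of 0.329 over all libraries, -0.082 without the 7 and 0.715 without controls 1 and 2.

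**Figure D4:**
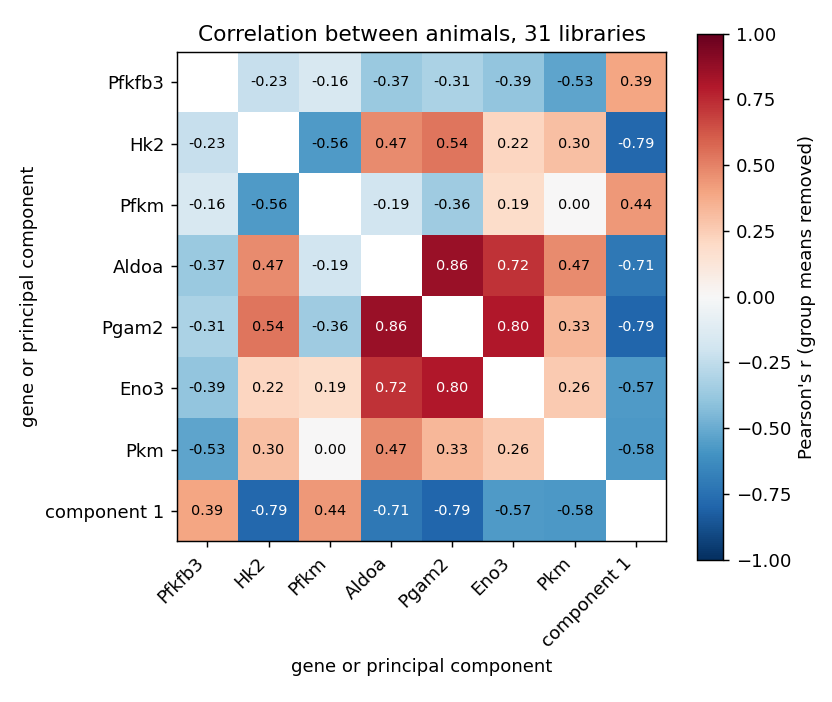
Pearson's r between the log2 levels of the 7 genes and with the first principal component of the genes outside the glycolysis lists, over 31 libraries with group means removed; red is positive and blue negative. Aldoa, Pgam2 and Eno3 form a block of high values from 0.725 to 0.862, while the row of Pfkfb3 is negative against all 6 enzymes over all libraries.

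Pfkfb3 had a negative r with each of the 6 enzymes over all 31 libraries, between -0.156 with Pfkm and -0.528 with Pkm, but these signs did not all hold. With Pfkm, r was 0.175 without animals 1 and 2 and -0.563 without the 7 low libraries, and with Hk2 it was 0.080 without the 7 low libraries. Of the 6, only Pkm passed over all libraries: r was -0.528 and rho -0.549, with p of 0.00423 and 0.00276 and adjusted p of 0.0148 and 0.0116 (permutation test over 21 pairs). The r was -0.424 without the 2 libraries farthest in Pfkfb3, -0.412 without animals 1 and 2 and -0.269 without the 7 libraries low on the first component. With Pgam2, r was -0.313 over all libraries, -0.723 without animals 1 and 2, which were high in both genes, and -0.097 without the 7 low libraries. With Aldoa it was -0.373, -0.573 and -0.130 in the same order, and with Eno3 -0.392, -0.583 and -0.363. Hk2 and Pfkm had r of -0.564 and rho of -0.411, with p of 0.00183 and 0.0323 and adjusted p of 0.00961 and 0.0948 (permutation). Their r was -0.271 without the 7 low libraries and -0.483 without animals 1 and 2.

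The first component moved with these genes too. Over 31 libraries its r was -0.794 with Pgam2 and -0.787 with Hk2, with rho of -0.783 and -0.686 and an adjusted permutation p of 3.5e-05 for both r over 7 genes. Without the 7 low libraries those r were -0.537 and -0.517. These libraries were picked by their score on this same component, so leaving them out narrows its range. That alone can lower r with the component, and between genes that follow it. A lower r without them therefore cannot decide whether a correlation rests on those libraries. With Aldoa, Pkm and Eno3 r was -0.711, -0.578 and -0.566, and rho was -0.635, -0.581 and -0.664, with adjusted permutation p for r of 0.000187, 0.00242 and 0.00356. Without the 7 low libraries r was -0.307, -0.232 and -0.505 for the same genes. With Pfkm r was 0.437 but rho 0.081 (adjusted permutation p of 0.0198 and 0.673), and r was -0.147 without the 7 low libraries. With Pfkfb3 r was 0.392 and rho 0.375 (adjusted permutation p of 0.0431 and 0.0617), and r was 0.071 without the 7 low libraries. Leaving out room temperature controls 1 and 2 instead gave r of 0.628 with Pfkfb3 and -0.815 with Pkm. For Pgam2, Hk2, Aldoa, Eno3 and Pfkm it gave -0.791, -0.767, -0.690, -0.528 and 0.345. The libraries share depth scaling and muscle make-up, and the part of these in the correlations was not tested. With that component as a covariate Pfkfb3 had a knockout difference at room temperature of -1.17 with an adjusted p of 0.216 (edgeR).

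Among 6692 named genes with a mean level of 5 CPM or more, the 5 whose log2 level most resembled that of Pfkfb3, by Pearson's r over 31 libraries with group means removed, were Tcof1 (0.824), Washc1 (0.790), Plcd1 (0.780), Bcat2 (0.768) and Naa25 (0.760). Tcof1 encodes the nucleolar protein treacle, Plcd1 a phospholipase C and Bcat2 the mitochondrial branched-chain aminotransferase. Of all candidates, 36 had r above 0.7. With the mean of the 6 enzymes, 448 of 6687 genes had r above 0.7. A mean of 6 genes averages out noise of single genes, so this count cannot be compared with that for Pfkfb3 alone. The closest were Tnni2 (0.942), the fast fibre form of troponin I, then Ndufa9 (0.926), Cuta (0.922), Uqcr10 (0.920) and Ndufs8 (0.909). Ndufa9 and Ndufs8 are subunits of respiratory complex I and Uqcr10 of complex III.

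The other genes of the pathway were followed in 3 lists, and the genes that passed there did so with cold. Of 19 other glycolysis enzymes and isoforms 9 were tested, and 1, Pgam1, was higher in the cold averaged over genotypes, where 3.67% of all genes were called higher. Pgam1, the mutase form of most tissues, averaged 57.5 ± 13.3 CPM in knockout rats in the cold, 44.4 ± 9.20 CPM in control rats in the cold, 41.5 ± 4.41 CPM in knockout rats at room temperature and 36.3 ± 9.003 CPM in control rats at room temperature (SD, n = 8, 8, 7 and 8). Its groups overlapped. The averaged cold change was 0.38 ± 0.11 with an adjusted p of 0.0354 (edgeR), 0.0516 without room temperature controls 1 and 2 and 0.0542 without the 7 low libraries. Its call held in 21 of 31 fits that left out 1 library, with adjusted p up to 0.0724 (edgeR). The interaction for Pgam1 was 0.18 ± 0.22. Of the rest, Pfkfb2, the heart relative of Pfkfb3, had 0.44 ± 0.21, and the liver-type phosphofructokinase Pfkl 0.30 ± 0.14, with adjusted p of 0.219 and 0.242 (edgeR). Both levels were low, with group means of 0.987 to 1.66 CPM for Pfkfb2 and 2.44 to 3.16 CPM for Pfkl. Bpgm, which makes 2,3-bisphosphoglycerate, had -0.45 ± 0.20 with cold in controls and an adjusted p of 0.302.

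Of 22 genes for glucose uptake, lactate and entry of pyruvate into mitochondria 20 were tested, and 3 rose with cold averaged over genotypes and none fell, where 3.67% of all genes were called higher and 1.98% lower. Ldhb, the lactate dehydrogenase subunit of oxidative muscle, rose in both genotypes, in contrasts where 1.02% of all genes were called higher in knockout rats and 0.595% in controls. It had 196 to 472 CPM with a median of 378 CPM in knockout rats in the cold, against 187 to 254 CPM with a median of 215 CPM in knockout rats at room temperature. In controls it had 263 to 448 CPM with a median of 364 CPM in the cold, against 96.0 to 292 CPM with a median of 237 CPM at room temperature. The log2 change was 0.75 ± 0.20 in knockout rats and 0.85 ± 0.19 in controls, with adjusted p of 0.0499 and 0.0251 (edgeR), and 0.80 ± 0.14 averaged with an adjusted p of 0.000422. The interaction was -0.11 ± 0.27. The averaged call held in 31 of 31 fits that left out 1 library. In knockout rats the adjusted p ran from 0.0210 to 0.127 as single libraries were left out, and in controls it was 0.0579 without animals 1 and 2. Ldha, the subunit of fast muscle, singled out after its values were seen, had -0.27 ± 0.10 averaged with an adjusted p of 0.120.

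Pdk3, a kinase that shuts the pyruvate dehydrogenase complex, rose by 0.60 ± 0.12 on the log2 scale with cold averaged over genotypes, with an adjusted p of 0.00222 (edgeR). Its level was low, 5.89 ± 1.27 CPM in knockout rats and 6.14 ± 1.23 CPM in control rats in the cold, against 3.85 ± 0.906 CPM in knockout rats and 4.07 ± 0.879 CPM in control rats at room temperature (SD, n = 8, 8, 7 and 8). Slc2a4, the insulin-responsive glucose transporter GLUT4, rose by 0.24 ± 0.07 with an adjusted p of 0.0416 (edgeR), which was 0.0995 without the 7 low libraries and above 0.05 in 14 of 31 fits that left out 1 library. It averaged 1138 ± 138 CPM in knockout rats and 1123 ± 125 CPM in control rats in the cold, against 890 ± 92.9 CPM in knockout rats and 1025 ± 146 CPM in control rats at room temperature (SD, n = 8, 8, 7 and 8). Pdk4, the kinase that rises in fasting muscle, was at 0.941 to 8.42 CPM with a median of 5.17 CPM in knockout rats at room temperature, against 0.417 to 4.84 CPM with a median of 1.46 CPM in control rats there. That difference of 1.42 ± 0.43 had an unadjusted p of 0.0026 and an adjusted p of 0.698 (edgeR).

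**Figure D5:**
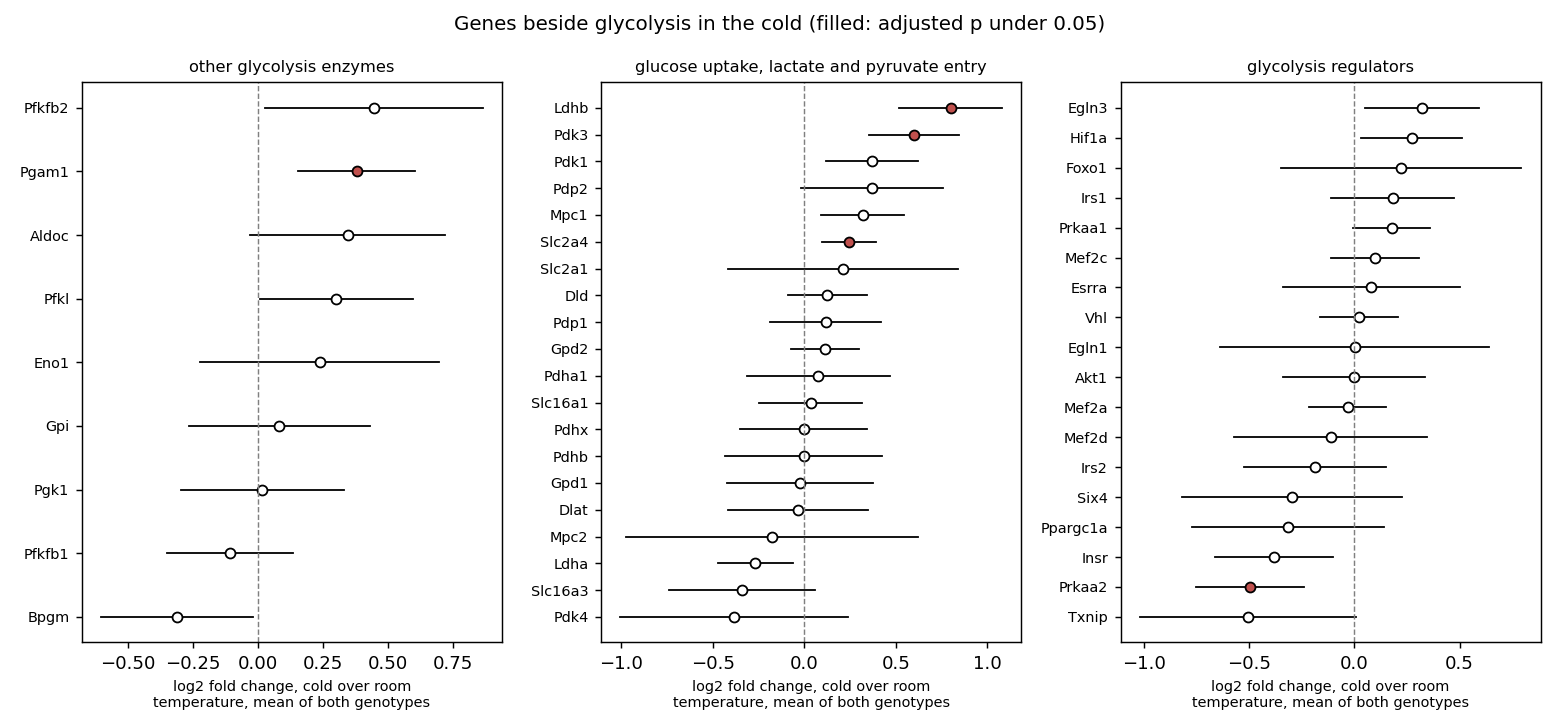
Log2 change with cold, averaged over genotypes, of the tested genes of the 3 lists beside the 7 genes, with 95% intervals; filled points passed an adjusted p of 0.05 (edgeR). Pgam1, Ldhb, Pdk3 and Slc2a4 lie above 0 and Prkaa2 below 0 among the filled points.

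Of 24 regulators of glycolysis 18 were tested, and 1 fell with cold averaged over genotypes, where 1.98% of all genes were called lower. It was Prkaa2, the muscle catalytic subunit of the energy sensor AMPK, which fell in the cold in knockout rats, where 0.357% of all genes were called lower. They had 11.98 to 26.4 CPM with a median of 18.1 CPM in the cold, against 18.8 to 44.998 CPM with a median of 37.9 CPM at room temperature. Control rats had 20.1 to 35.1 CPM with a median of 29.05 CPM in the cold, against 16.8 to 37.5 CPM with a median of 33.2 CPM at room temperature. The change was -0.95 ± 0.18 in knockout rats, with an adjusted p of 0.00472, and -0.04 ± 0.17 in controls, with an adjusted p of 0.929 (edgeR). The difference between the genotypes' cold effects was -0.91 ± 0.25 with an unadjusted p of 0.00104 and an adjusted p of 0.452 (edgeR), so it did not pass. Averaged over genotypes the cold change was -0.50 ± 0.13 with an adjusted p of 0.0141 (edgeR), and 0.0636 without the 7 low libraries. Prkaa1, the other catalytic subunit, had 0.36 ± 0.13 in knockout rats with an adjusted p of 0.166, and the insulin receptor gene Insr had -0.61 ± 0.19 with cold in controls and an adjusted p of 0.121 (edgeR). Egln3, a prolyl hydroxylase that acts on HIF1, had 0.32 ± 0.13 with cold averaged over genotypes and an adjusted p of 0.156 (edgeR).

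Fibre markers moved beside these cold changes. In the averaged cold effect, where 3.67% of all genes were called higher and 1.98% lower, 8 of 10 slow fibre genes passed higher and none lower, with a median change of 0.84. Their sum was 14363 to 30806 CPM in knockout rats in the cold and 18984 to 25429 CPM in control rats in the cold, against 9005 to 15196 CPM in knockout rats and 6583 to 17178 CPM in control rats at room temperature. Of 9 tested fast fibre genes 1 passed higher, with a median of 0.22, and Myh2, Myh4 and Atp2a1 were not tested. Adipocyte genes summed to 487 to 1282 CPM in knockout rats and 426 to 767 CPM in control rats in the cold, against 398 to 615 CPM in knockout rats and 167 to 700 CPM in control rats at room temperature. Of the 8 adipocyte genes tested 1 passed higher. Immune genes summed to 300 to 462 CPM in knockout rats and 239 to 433 CPM in control rats in the cold, against 183 to 390 CPM in knockout rats and 55.3 to 279 CPM in control rats at room temperature, and 4 of 11 passed higher. Of 4 tested erythrocyte rows 3 passed higher, with a median of 0.75. Hba-a2 filled more than 1 of these rows, so they are not 4 separate genes, and the others were Hbb and Alas2. Hbb did not pass and had -0.02. Hba-a1, Hbb-b1 and Slc4a1 were not tested. The rows summed to 444 to 2018 CPM in knockout rats and 467 to 1082 CPM in control rats in the cold. At room temperature they summed to 254 to 1079 CPM in knockout rats and 336 to 659 CPM in control rats. Of 7 tested endothelial genes 1 passed lower, with a median of -0.27 and sums of 111 to 211 CPM in knockout rats and 105 to 163 CPM in control rats in the cold, against 112 to 208 CPM in knockout rats and 130 to 274 CPM in control rats at room temperature. Transcripts of mitochondrial DNA took a mean of 9.43% of counts in knockout rats and 10.3% in control rats in the cold, against 12.4% in knockout rats and 12.5% in control rats at room temperature. The part of these measures in the changes of Ldhb, Pdk3, Slc2a4, Prkaa2 and Pgam1 was not tested.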

How the data were processed

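Gastrocnemius RNA of 31 rats was made into QuantSeq 3' tag libraries, per the labels' protocols. The authors deposited a table of raw counts per gene and a table of normalized signal. Per the submitters' processing notes, DESeq2 1.22.2 and build Rnor 6.0 were used. Aligner, counter and strandedness were not given in the sources used here, so overlapping and antisense genes may share reads. The deposited signal equalled the counts divided by 1 size factor per library within a relative difference of 5.23e-10, and only the counts were tested. The lowest total of a listed gene was 93 counts, so rare genes had been removed before deposition. Reads are not unique molecules as far as the sources show.

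Tests used edgeR 4.0.16 in R 4.3.3: TMM scaling, filterByExpr (minimum count 10, minimum total 15), 1 mean per group over all 31 libraries (residual df 27), the quasi-likelihood test, and two-sided p adjusted by Benjamini-Hochberg over 10082 genes, with a threshold of 0.05. The SE is the size of the log2 change over the square root of F, and log2 levels use a prior count of 2. Alternatives were DESeq2 1.42.0, RLE size factors, no filter, mitochondrial transcripts left out of library sizes, the first component as covariate, only the groups compared, and libraries left out. Scripts were tested on simulated data. The members and lists were chosen with earlier results of these data known. Named genes are the members, up to 4 genes of each of the 3 pathway lists by smallest p plus every gene that passed, and the 5 most like Pfkfb3 or the other members. Each rat has its own number, and over 105 within-group pairs the chi-square of counts was at least 5.23 times its degrees of freedom, so no pair agreed within sampling noise. Promoter letters come from RefSeq in build GRCr8, which is not the build of the counts, so no gene coordinates are given beyond theirs. With 1 library per rat, the p-values measure the spread between rats. A gene of the regulator list is not reported here.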

Additional observations from a re-analysis of the deposited data

Results flagged for a closer look

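Over 28 groups of values (7 genes in 4 groups), 3 held a library set apart from its group by a wide gap. The gaps were taken in CPM, not on the log2 scale. The Dixon limit assumes normally distributed values, so the number of groups flagged was not weighed against chance. Pfkfb3 in control animal 18 in the cold was at 159 CPM, and the nearest of the other 7 was at 99.0 CPM, a gap of 0.595 of the group's whole range, above the Dixon limit at 95% for 8 samples. Pkm in control animal 17 in the cold was at 24.99 CPM, with the nearest at 9.98 CPM and a gap of 0.676. Pkm in knockout animal 28 in the cold was at 18.7 CPM, with the nearest at 5.31 CPM and a gap of 0.769. Animals 17 and 28 are both among the 7 libraries low on the first component, and animal 18 is not.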

How the results depend on the processing

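No paired analysis was possible because each rat has its own number and the groups share none. No member passed under any alternative run. The number of genes called over the whole table moved far more. With the first component as a covariate it was 377 for cold in controls (86 in the reported fit), 673 for cold in knockout rats (139), 1273 for cold averaged (570), 8 for knockout in the cold (1) and 8 for knockout averaged (0). With DESeq2 it was 220 and 328 for cold in controls and in knockout rats, 1 for knockout at room temperature, 8 for knockout in the cold, 1 for the interaction and 9 for knockout averaged. Without room temperature controls 1 and 2 it was 38 and 379 for cold in controls and in knockout rats, 4 for knockout in the cold and 1 for knockout averaged. Without the 7 low libraries it was 53 for cold in controls and 0 for knockout in the cold, and with only the groups compared 53 for cold in knockout rats and 0 for knockout in the cold. Leaving out 1 library at a time gave 36 to 154 for cold in controls, 56 to 231 for cold in knockout rats, 451 to 688 for cold averaged, 0 to 1 for knockout at room temperature, 0 to 3 for knockout in the cold, 0 to 1 for the interaction and 0 to 2 for knockout averaged. The cause was not tested.

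Member values that changed sign, all under the threshold, were as follows on the log2 scale. With the first component: Pfkm cold in controls 0.059, Pgam2 knockout in the cold 0.0043, Pkm cold averaged -0.26 and Pkm knockout averaged -0.10. Without controls 1 and 2: cold in controls Aldoa 0.047, Pgam2 0.21 and Eno3 0.029, knockout at room temperature Pfkm -0.14, Aldoa 0.018 and Pgam2 0.20, interaction Pgam2 -0.23, cold averaged Pgam2 0.094 and Pkm -0.088, and knockout averaged Hk2 0.036, Pgam2 0.082 and Pkm -0.13. Without the 7 low libraries: Hk2 knockout at room temperature -0.032, Pkm cold averaged -0.39 and Pkm knockout averaged -0.39. With 1 library left out, the ranges that crossed 0 were -0.11 to 0.054 for Pfkm and cold in controls, -0.10 to 0.22 for Pfkfb3, -0.062 to 0.13 for Hk2 and -0.23 to 0.082 for Pgam2 with cold in knockout rats. They were -0.039 to 0.12 for Hk2 and -0.041 to 0.13 for Pfkm with knockout at room temperature, -0.24 to 0.085 for Pgam2 with knockout in the cold and -0.19 to 0.017 for the Aldoa interaction. They were -0.26 to 0.16 for Pkm with cold averaged, and -0.073 to 0.025 for Hk2 and -0.30 to 0.21 for Pkm with knockout averaged. Pfkfb3 with knockout at room temperature kept its sign in all 31 such fits, from -1.29 to -0.92.

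Among other genes, Ldhb in knockout rats passed in 5 of 31 such fits and missed with RLE size factors (adjusted p of 0.0502, edgeR), and Ldhb in controls with only the groups compared (0.0572). Slc2a4 with cold in knockout rats passed with DESeq2 (0.0243), and Prkaa2 with cold averaged missed without the 7 low libraries (0.0636). Counted over these other named genes, 4 calls were lost without the 7 low libraries. Leaving mitochondrial transcripts out of library sizes lost 1 call, as did omitting the filter on low counts. The first component as covariate gained 1 call and DESeq2 gained 1. Without room temperature controls 1 and 2, 2 calls were lost and 2 gained. Counts of 11 to 188 a library limit Pkm, and groups of 7 or 8 limit the rest.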
